A study of Mus musculus with 6 samples.

Results

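The heat shock response and the unfolded protein response were examined across 34 genes, chosen by name as chaperones, folding enzymes and stress sensors of the cytosol, mitochondria and endoplasmic reticulum (ER). Of these, 32 had a probe set that named them alone and were analysed among 18193 genes; Hsp90ab1 and Hsf1 were not analysed here. RNA from sorted mouse bone marrow was hybridised to 6 single-colour 3' expression arrays, 3 in each of 2 groups. The Raptor mutant group came from C57BL/6 mice homozygous for a floxed exon 6 of Raptor (Rptor) and carrying MxCre, a Cre transgene driven by the interferon-inducible Mx promoter. The wild type group carried the same homozygous floxed alleles without MxCre. All mice of both groups were given 3 daily doses of pIpC (15 µg for each g of body weight) within 5 days, which induces interferon, and Flt3-negative, lineage-negative, Sca1-positive and cKit-positive cells were collected 5 weeks later. The labels do not say whether each array holds RNA of 1 mouse, so p-values measure the spread between arrays, which may be partly technical.

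Raptor is the subunit that defines mTOR complex 1, a kinase complex that promotes protein synthesis and cell growth. Newly made proteins are folded by chaperones. In the cytosol, misfolded protein frees the factor HSF1 to bind heat shock elements and switch on the inducible chaperones. In the ER, misfolded protein is sensed by IRE1, PERK and ATF6, which raise chaperones and degradation factors through XBP1, ATF4 and cleaved ATF6 and restrain translation. Blood stem cells are known for a low rate of protein synthesis and for sensitivity to misfolded protein.

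Between Raptor mutant and wild type cells, no heat shock or unfolded protein response gene passed the test for a change. With limma, 0 of 32 passed an adjusted p of 0.05, against 0.110% of all genes (20 of 18193), and the smallest adjusted p was 0.486, for Creld2. At an unadjusted p under 0.05, 4 of 32 were higher in the mutant (Creld2, Hspa9, Xbp1 and Hsp90b1) and 0 lower, where 5.81% of all genes were higher. The log2 fold change, mutant minus wild type, was above 0 for 29 of 32, against 40.4% of all genes, and its median was 0.18, against -0.07 over all genes. All 3 mutant arrays lay above all 3 wild type arrays for 8 of 32 members, against 8.08% of all genes, and for 0 members did they all lie below. These members are mostly bright: 31 of 32 lie in the upper 50% of genes by mean signal, where the median was 0.06, 58.5% of genes had a positive value and 13.4% had all mutant arrays above. In the upper 25%, which holds 23 of the 32, these values were 0.06, 60.8% and 15%. At an unadjusted p under 0.05, 825 of the 9097 genes in the upper 50% were higher in the mutant, and 356 of the 4549 in the upper 25%.

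Which wild type arrays were used moved these counts. The X-inactivation RNA Xist had log2 signals of 13.37, 13.38 and 13.40 in the mutant, against 13.46, 8.05 and 5.69 in the wild type (arrays 1, 2 and 3). Kdm5d and Eif2s3y, which lie on the Y chromosome, were high on wild type arrays 2 and 3 and low elsewhere, so wild type array 1 is the single control that matches the mutants in this respect. Set against wild type array 1 alone, 21 of 32 members were above it, with a median difference of 0.07. Among all genes 10578 of 18193 were above it, with a median of 0.04. In the upper 50% by mean signal 4870 of 9097 genes were above it, and in the upper 25% 2440 of 4549, each with a median of 0.025. Whether the members differ from these backgrounds was not tested. The part of sex-linked differences between arrays in the results was not tested.

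Other facts of the series bear on these values. The probe sets of Rptor do not separate the groups: its brightest one had log2 signals of 8.68, 7.99 and 8.33 in the mutant, against 8.57, 8.17 and 7.59 in the wild type (limma adjusted p = 0.791 over probe sets). No source used here places its 3 probe sets relative to the deleted exon, so they do not check the labels. The 10 measured gate and stem cell markers summed to intensities of 18390 to 19740 in the mutant, against 22590 to 25290 in the wild type, and Flt3, although sorted against, had log2 signals of 9.64 to 10.18 in the mutant and 9.51 to 10.79 in the wild type. Mast cell and basophil markers (8 of 8 measured) summed to 5237 to 8311 in the mutant and 2210 to 2863 in the wild type. Macrophage and dendritic cell markers (9 of 9) summed to 3625 to 7800 in the mutant and 1546 to 1697 in the wild type, and neutrophil markers (7 of 8) to 1818 to 5553 in the mutant and 18100 to 26720 in the wild type. Plasma cell markers (7 of 8), of a cell type rich in ER chaperones, summed to 961.7 to 2446 in the mutant and 697.7 to 2603 in the wild type, so the groups overlapped, as they did for erythroid markers (5 of 7; 2324 to 5471 in the mutant and 1433 to 3971 in the wild type). T and NK cell markers (8 of 8) summed to 4101 to 4823 in the mutant and 3057 to 3416 in the wild type. Gzmb among them rose (log2 fold change 4.21 ± 0.38, limma adjusted p = 0.013), while the list median was 0.08 and Cd3e (-0.46 ± 0.48) and Cd8a (-0.19 ± 0.20) were below 0. The other cell markers called were lower in the mutant: Tek of the stem cell list (-1.48 ± 0.17, adjusted p = 0.030) and Camp of the neutrophil list (-3.81 ± 0.42, adjusted p = 0.030). The 14 immediate early genes, which respond to handling, summed to 27510 to 32030 in the mutant and 36400 to 45440 in the wild type. The log2 ratio of 3' over 5' control probes of Gapdh, a sign of RNA degradation, was 1.52, 1.34 and 1.33 in the mutant, against 1.99, 1.60 and 1.53 in the wild type. For the control probes of Actb this ratio was 0.05, -0.03 and -0.05 in the mutant, against 0.13, -0.07 and -0.07 in the wild type, and the groups overlapped. In these sorted but mixed populations a changed share of a cell type and a changed level per cell cannot be told apart, and the part of cell mixture, handling and RNA quality in the results below was not tested.

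**Figure D1:**
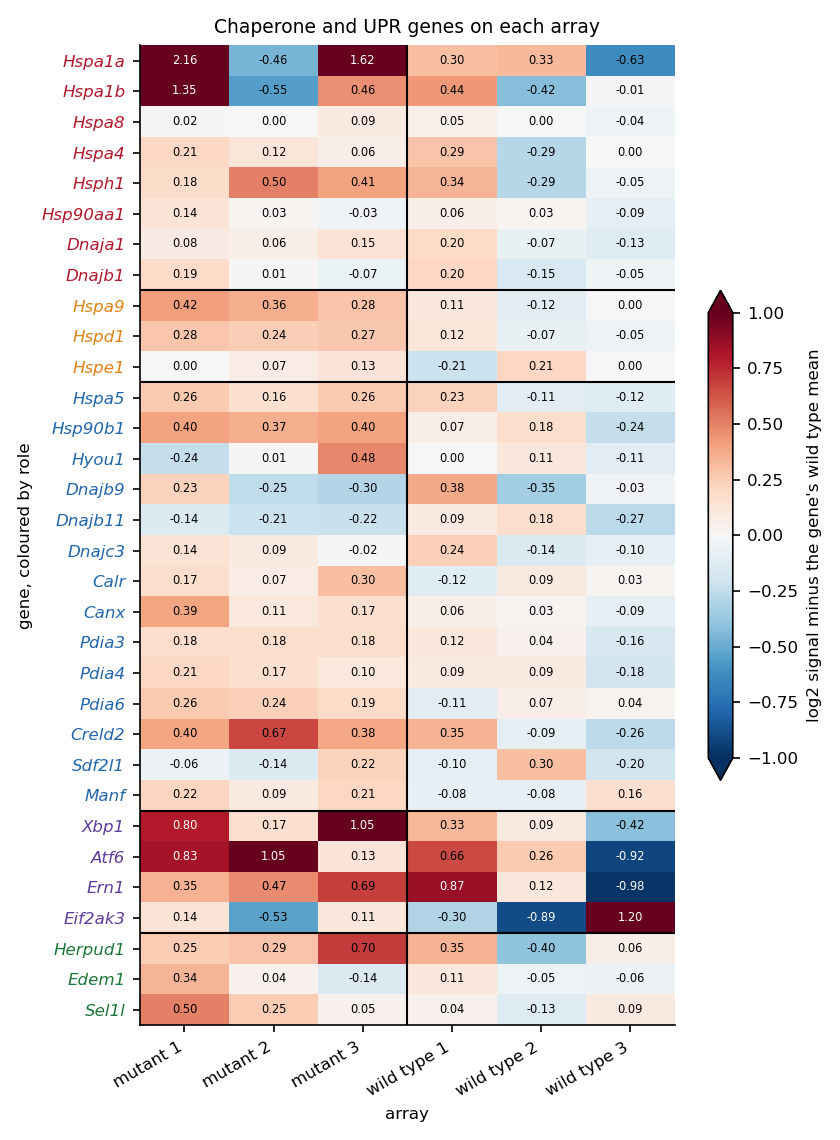
The log2 signal of each of the 32 genes (rows, coloured by role) on each array (columns, mutant left and wild type right) minus the gene's wild type mean, with colours capped at 1 in either direction. Most mitochondrial and ER rows are slightly red on the 3 mutant arrays. Wild type array 1 is also above 0 in the median, at 0.25 for cytosolic, 0.11 for mitochondrial and 0.08 for ER chaperones. The rows of Hspa1a, Hspa1b, Atf6, Ern1 and Eif2ak3 vary most within a group.

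Several of these genes carry textbook stress elements in front of their start, shown here because such sites are how these responses are known to reach their targets. The ER stress element was searched on both strands of RefSeq promoter windows (GRCm38.p6, 250 bases before to 50 after the start, found for 26 of the 34 genes) as CCAAT, then any 9 bases, then CCACG, exact letters only. It lies in 39 of 32851 windows (0.119%) and in those of 7 members, all of them ER chaperones or folding enzymes. Each sequence below is on the gene's strand, 5' to 3', with 8 bases on either side, and capitals mark the paired ends of the element, which read CGTGG and ATTGG where it faces the other way.
Hspa5: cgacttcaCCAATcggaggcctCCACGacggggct
Hsp90b1, far: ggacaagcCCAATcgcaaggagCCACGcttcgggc
Hsp90b1, near: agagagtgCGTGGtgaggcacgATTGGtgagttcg
Dnajc3: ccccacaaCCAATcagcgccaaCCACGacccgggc
Canx: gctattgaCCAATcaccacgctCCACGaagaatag
Pdia6: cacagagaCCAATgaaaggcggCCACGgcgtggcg
Calr: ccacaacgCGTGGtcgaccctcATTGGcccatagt
Creld2: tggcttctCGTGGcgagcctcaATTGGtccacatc

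The printed stretches lie at chr2:34772017-34772051 on the plus strand for Hspa5, chr14:118937819-118937853 (plus) for Dnajc3, chr12:17266483-17266517 (plus) for Pdia6 and chr15:88819512-88819546 (plus) for Creld2. On the minus strand lie those of Hsp90b1 (chr10:86705630-86705664 and chr10:86705525-86705559), Canx (chr11:50325792-50325826) and Calr (chr8:84847067-84847101). The elements begin between 65 bases (Hspa5) and 212 bases (the far element of Hsp90b1) before the start. The heat shock element was searched as GAA, TTC and GAA, each 2 bases apart, or TTC, GAA and TTC, on both strands and with overlapping matches joined. It lies in 198 windows (0.603%), among them that of Hspe1 and 1 of the 2 of Hspd1. From these windows the genes are transcribed away from each other, with starts 216 bases apart and 285 shared bases. The other Hspd1 window has its start at chr1:55088243, past the Hspe1 start at chr1:55088148, and shares 4 bases with the Hspe1 window. The element common to Hspe1 and Hspd1 is shown on the strand of Hspe1, with capitals on each block.
Hspe1 and Hspd1: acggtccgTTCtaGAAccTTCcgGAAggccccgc

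That stretch lies at chr1:55088051-55088084. Its blocks run from 89 to 72 bases before the Hspe1 start and from 144 to 127 bases before the Hspd1 start at chr1:55087932. A further match lies after the start of Hsph1. The unfolded protein response element, TGACGTGG, searched on both strands, lies in 222 windows (0.676%) and in 0 member windows. No match says only that these letters are not in the window.

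The cytosolic chaperones did not separate the groups. None of the 8 measured passed the test, 0 of 8 had all mutant arrays above all wild type arrays, and the median log2 fold change was 0.11. Although 8 of 8 values were above 0, against wild type array 1 alone 2 of 8 were higher in the mutant, with a median of -0.02. The median was 0.24 without wild type array 1, and 0.06, 0.08 and 0.07 without wild type array 2, wild type array 3 or mutant array 1. On the mutant arrays the 8 genes had medians of 0.19, 0.02 and 0.12 relative to the wild type mean, against 0.25, -0.11 and -0.05 on the wild type arrays, and the groups overlapped.

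Hspa8, the constitutive cytosolic HSP70, had log2 signals of 13.77, 13.75 and 13.85 in the mutant, against 13.81, 13.75 and 13.71 in the wild type. Hsp90aa1, the stress-inducible cytosolic HSP90, had 13.31, 13.20 and 13.14 in the mutant, against 13.24, 13.20 and 13.08 in the wild type. Both pairs of groups overlapped throughout, with log2 fold changes of 0.03 ± 0.14 and 0.04 ± 0.15 (SE, n = 3 each) and 95% intervals of -0.30 to 0.36 and -0.30 to 0.39. Hspa4, an HSP70-related nucleotide exchange factor, had 12.99, 12.91 and 12.85 in the mutant, against 13.07, 12.50 and 12.78 in the wild type, and wild type array 1 was the highest of the 6. Dnaja1 and Dnajb1, J-domain proteins that pass substrates to HSP70, differed by 0.10 ± 0.16 and 0.05 ± 0.17, and in both wild type array 1 was the highest of the 6, at 13.20 and 12.80.

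The heat-inducible HSP70 genes varied far more between arrays. Hspa1a had log2 signals of 7.91, 5.29 and 7.37 in the mutant, against 6.05, 6.08 and 5.12 in the wild type. Mutant arrays 1 and 3 were above all wild type arrays, and mutant array 2 was below wild type arrays 1 and 2. The log2 fold change of 1.10 ± 0.64 did not pass the test (limma adjusted p = 0.595), and its interval ran from -0.37 to 2.58. Hspa1b had 9.88, 7.98 and 8.99 in the mutant, against 8.97, 8.11 and 8.52 in the wild type, again with mutant array 2 the lowest. Its log2 fold change was 0.42 ± 0.46 (adjusted p = 0.737), and its other probe sets gave 1.02 and 1.07, also without passing. These 2 genes are near-identical copies, so their probes may share RNA. Hsph1, an HSP110 exchange factor for HSP70, had 11.59, 11.91 and 11.81 in the mutant, against 11.75, 11.12 and 11.36 in the wild type, a log2 fold change of 0.36 ± 0.20 (adjusted p = 0.586). Against wild type array 1 alone its difference was 0.02.

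The mitochondrial chaperones stood higher in the mutant by a small amount that did not pass the test. Their median log2 fold change was 0.26, with 3 of 3 above 0, and it was 0.24 against wild type array 1 alone. For 2 of 3 all mutant arrays lay above all wild type arrays, against 8.08% of all genes and 15% of the upper 25% by mean signal. On the mutant arrays the 3 genes had medians of 0.28, 0.24 and 0.27 relative to the wild type mean, against 0.11, -0.07 and 0.00 on the wild type arrays, so all mutant arrays were above all wild type arrays.

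Hspa9 encodes mortalin, the HSP70 that pulls proteins into the mitochondrial matrix. It had log2 signals of 12.62, 12.56 and 12.48 in the mutant, against 12.31, 12.08 and 12.20 in the wild type, a log2 fold change of 0.36 ± 0.15 (limma adjusted p = 0.490). The groups did not overlap on this probe set, while across its 5 probe sets the value ran from -0.35 to 0.36 and 4 of 5 were positive. Hspd1 and Hspe1 encode HSP60 and HSP10, which together form the folding chamber of the matrix, and share the promoter region printed above. Hspd1 had 13.36, 13.33 and 13.35 in the mutant, against 13.21, 13.02 and 13.04 in the wild type, without overlap (log2 fold change 0.26 ± 0.15, adjusted p = 0.585). Hspe1 had 13.08, 13.15 and 13.21 in the mutant, against 12.87, 13.29 and 13.08 in the wild type, where wild type array 2 was the highest of all (0.07 ± 0.17, adjusted p = 0.882). The 2 partners thus gave different pictures between the groups, and the difference between them was not tested.

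**Figure D2:**
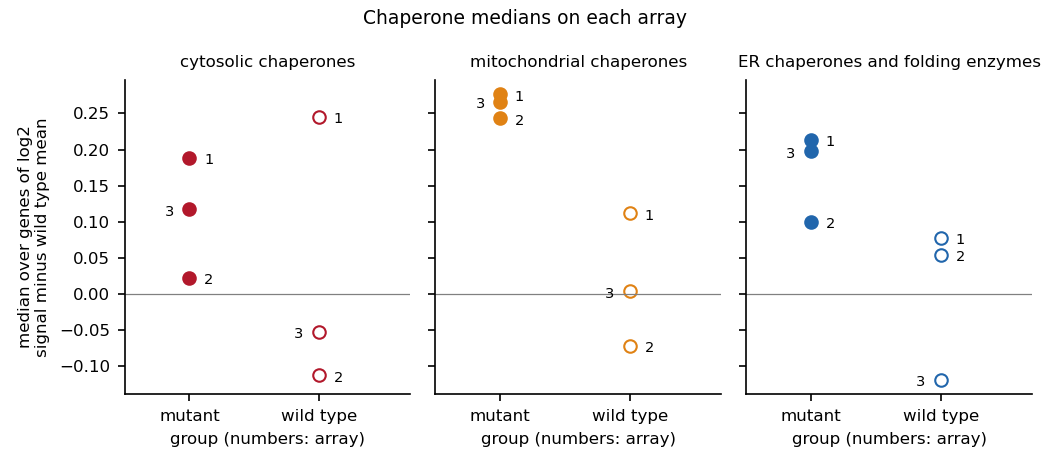
The median over the 8 cytosolic, 3 mitochondrial and 14 ER chaperones of log2 signal minus the wild type mean (vertical axis) on each numbered array, mutant left (filled) and wild type right (open). Mutant arrays lie above all wild type arrays for the mitochondrial and ER genes, while wild type array 1, at 0.25, is the highest for the cytosolic genes.

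Among the 14 ER chaperones and folding enzymes, 12 had a log2 fold change above 0 and none passed the test. All mutant arrays lay above all wild type arrays for 6 of 14 (Hsp90b1, Canx, Pdia3, Pdia4, Pdia6 and Creld2). The share was 8.08% of all genes and 15% of the upper 25% by mean signal. The median of the 14 genes was 0.17, and 0.09 against wild type array 1 alone, where 11 of 14 were higher in the mutant. On the mutant arrays the medians relative to the wild type mean were 0.21, 0.10 and 0.20, against 0.08, 0.05 and -0.12 on the wild type arrays. The mutant arrays were above all wild type arrays, with mutant array 2 and wild type array 1 close together.

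Creld2, an ER-resident protein with disulfide isomerase activity that is induced by ER stress, had log2 signals of 10.43, 10.71 and 10.42 in the mutant, against 10.39, 9.94 and 9.78 in the wild type. The gap between the lowest mutant and the highest wild type array was narrow. Its log2 fold change of 0.48 ± 0.20 (1.40-fold, limma adjusted p = 0.486) had an interval of 0.01 to 0.95, and it was 0.13 against wild type array 1 alone. Hsp90b1 encodes GRP94, the HSP90 of the ER, and carries both elements printed above. It had 12.94, 12.90 and 12.93 in the mutant, against 12.60, 12.71 and 12.29 in the wild type, with the mutant arrays close together and clear of the wild type ones (0.39 ± 0.17, adjusted p = 0.494). Its second, dimmer probe set gave a log2 fold change of 0.0025, so the difference rests on 1 probe set.

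Hspa5 encodes BiP, the HSP70 of the ER that holds the stress sensors inactive. It had log2 signals of 12.62, 12.52 and 12.61 in the mutant, against 12.58, 12.25 and 12.23 in the wild type. Wild type array 1 lay within the mutant range and the other wild type arrays below it, and the log2 fold change was 0.23 ± 0.16 (adjusted p = 0.647, interval -0.15 to 0.61). Against wild type array 1 alone the difference was 0.00056, and the dimmest of its 3 probe sets gave -0.33. The cofactors of BiP did not follow 1 direction. Hyou1, an exchange factor, had 10.06, 10.30 and 10.77 in the mutant, against 10.30, 10.41 and 10.18 in the wild type (0.08 ± 0.21), and its other probe sets gave -0.73 and -0.11. Dnajc3, a J-domain cofactor also known as p58IPK, differed by 0.07 ± 0.17, with wild type array 1 the highest. Dnajb9 and Dnajb11, both ER J-domain proteins, had log2 fold changes of -0.11 ± 0.24 and -0.19 ± 0.17, the only negative values of the ER group. Dnajb11 had 11.45, 11.37 and 11.36 in the mutant, against 11.67, 11.76 and 11.32 in the wild type, and the groups overlapped through wild type array 3.

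Calr and Canx encode calreticulin and calnexin, the lectin chaperones that retain glycoproteins until folded. Calr had log2 signals of 12.78, 12.68 and 12.91 in the mutant, against 12.49, 12.69 and 12.64 in the wild type, and Canx had 12.37, 12.08 and 12.14, against 12.03, 12.00 and 11.89. The groups overlapped for Calr and were apart for Canx, with log2 fold changes of 0.18 ± 0.15 and 0.22 ± 0.16. Their partner Pdia3, the disulfide isomerase ERp57, had the same 12.57 on all mutant arrays, while the wild type had 12.51, 12.43 and 12.23 (0.18 ± 0.15). Its second probe set gave -0.19. The isomerases Pdia4 and Pdia6 also had all mutant arrays above all wild type arrays, by 0.16 ± 0.16 and 0.23 ± 0.15. For Pdia6 the mutant arrays had 9.61, 9.58 and 9.54, against 9.24, 9.42 and 9.39 in the wild type. Manf, a secreted ER stress protein, and Sdf2l1, part of a BiP complex, overlapped between groups, with log2 fold changes of 0.17 ± 0.15 and 0.01 ± 0.19. For Sdf2l1 wild type array 2 was the highest of the 6, at 9.56.

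Split by the printed element, the 7 ER genes that hold it had a median log2 fold change of 0.23, with 7 of 7 above 0 and 4 not overlapping between groups. The 5 ER genes whose window lacks the exact letters (Dnajb9, Dnajb11, Pdia3, Pdia4 and Sdf2l1) had a median of 0.0086, with 3 above 0 and 2 not overlapping. Over all genes 40.4% were above 0 and 8.08% had all mutant arrays above all wild type arrays. In the upper 50% by mean signal these shares were 58.5% and 13.4%. Hyou1 and Manf had no promoter window and are in neither group. This split was chosen with values of these arrays known and no test was made of it. Over all 20 tested genes of any function with the element in a window, the 7 ER genes included, the median was -0.0018. Of these 20, 10 were above 0, among them all 7 ER genes, and 0 were called.

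Of the sensors and transcription factors of the unfolded protein response, none of the 4 measured passed the test. On the probe sets used the groups overlapped in all 4 genes. Their median log2 fold change was 0.59, with 3 of 4 above 0, and 0.11 against wild type array 1 alone. Wild type arrays spread more here than elsewhere in the set, with a median SD of 0.88 on the log2 scale in the wild type group, against 0.42 in the mutant group.

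Xbp1, the factor made active by IRE1 through splicing of its RNA, had log2 signals of 9.98, 9.35 and 10.23 in the mutant, against 9.51, 9.27 and 8.76 in the wild type. Mutant arrays 1 and 3 were above all wild type arrays, and mutant array 2 lay between wild type arrays 1 and 2. The log2 fold change was 0.67 ± 0.28 (limma adjusted p = 0.490, interval 0.02 to 1.33), and its 4 probe sets all gave positive values, of 0.53 to 0.72. Against wild type array 1 alone the difference was 0.34 on the brightest probe set. On the dimmer probe set that gave 0.72 the groups were apart, and on the others they overlapped. A 3' array does not tell spliced from unspliced Xbp1 RNA.

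Ern1, which encodes IRE1 itself, had log2 signals of 9.79, 9.92 and 10.14 in the mutant, against 10.31, 9.56 and 8.46 in the wild type, so the wild type arrays lay on both sides of the mutant ones (0.50 ± 0.42, adjusted p = 0.676). Atf6, the sensor that is cut into a factor, had 9.58, 9.80 and 8.88 in the mutant, against 9.42, 9.01 and 7.83 in the wild type (0.67 ± 0.42, adjusted p = 0.621). For both, wild type array 3 was the lowest of the 6, and against wild type array 1 alone the differences were -0.36 for Ern1 and 0.01 for Atf6. Eif2ak3, which encodes the translation-restraining kinase PERK, had 7.93, 7.26 and 7.90 in the mutant, against 7.49, 6.90 and 8.99 in the wild type. Wild type array 3 was here the highest, the log2 fold change was -0.09 ± 0.49 and its interval, -1.24 to 1.05, included a change of 2-fold in either direction.

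The genes of ER-associated degradation carry misfolded protein out of the ER to the proteasome. On the probe sets used they overlapped between groups in 3 of 3 cases, and none passed the test. Herpud1, a stress-induced membrane scaffold of the pathway, had log2 signals of 8.62, 8.65 and 9.06 in the mutant, against 8.71, 7.96 and 8.42 in the wild type (0.41 ± 0.23, adjusted p = 0.593). Sel1l, the partner of the ubiquitin ligase HRD1, had 10.51, 10.26 and 10.05 in the mutant, against 10.05, 9.88 and 10.10 in the wild type (0.27 ± 0.17, adjusted p = 0.629), and its 5 probe sets all gave positive values. The groups were apart on the dimmer Sel1l probe sets that gave 0.48 and 0.36 and overlapped on the others. Edem1, which recognises trimmed glycans, had 9.86, 9.56 and 9.38 in the mutant, against 9.63, 9.47 and 9.46 in the wild type (0.08 ± 0.18). In Edem1 the mutant arrays lay on both sides of the wild type ones. The median of the 3 genes was 0.27, and 0.07 against wild type array 1 alone.

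**Figure D3:**
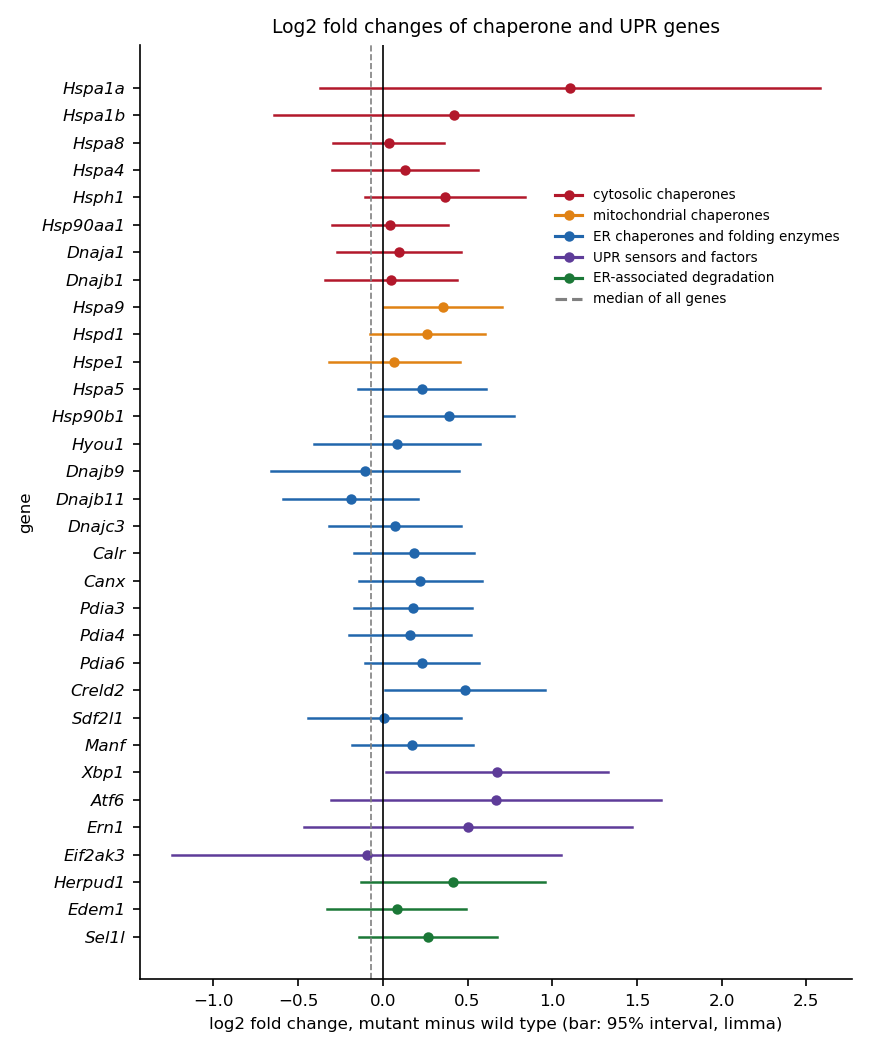
Log2 fold change, mutant minus wild type, with its 95% interval from limma (horizontal axis) for each of the 32 genes, coloured by role. The dashed line is the median of all genes, -0.07, and the intervals of Creld2, Hspa9, Xbp1 and Hsp90b1 alone exclude 0 before adjustment.

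Agreement between probe sets was partial. The 32 genes have 86 probe sets of their own, of which 0 passed the test. Of the 25 genes with several, 15 had log2 fold changes of 1 sign on all of them and 10 of both signs (Dnajb1, Dnajc3, Ern1, Hsp90aa1, Hspa4, Hspa5, Hspa8, Hspa9, Hyou1 and Pdia3). Calr, Canx, Atf6 and Dnaja1 had 3 positive values of 3, and Eif2ak3 had 3 negative values of 3.

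The other genes of the same pathways were read from lists holding 131 names, of which 124 were measured. With limma 0 of 124 passed the test, against 0.110% of all genes. At an unadjusted p under 0.05, 10 of 124 were higher and 3 lower. Of all 18193 genes, 1057 (5.81%) were higher and 771 lower. Of the 9097 genes in the upper 50% by mean signal, 825 were higher and 450 lower. The median log2 fold change of the 124 was 0.13, against -0.07 over all genes and 0.06 in the upper 50%. All mutant arrays lay above all wild type arrays for 24 of 124 (19.4%) and below for 4, where 8.08% of all genes and 13.4% of the upper 50% lay above.

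Other mitochondrial chaperones and proteases had the highest median of these lists, 0.41, with 11 of 11 above 0 and 11 of 11 above wild type array 1 (median 0.26). For 6 of 11 all mutant arrays lay above all wild type arrays, against 8.08% of all genes. Spg7, a subunit of a protease of the inner membrane, had log2 signals of 8.46, 8.54 and 8.65 in the mutant, against 8.26, 8.08 and 7.68 in the wild type (0.54 ± 0.19, limma adjusted p = 0.420). Clpx, the unfoldase of the matrix protease, had 8.45, 8.17 and 8.48 in the mutant, against 8.15, 7.84 and 7.44 in the wild type (0.56 ± 0.22, adjusted p = 0.459). Both had the groups apart, Clpx by a narrow gap.

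The 8 subunits of TRiC, the cytosolic chaperonin that folds actin and tubulin, had log2 fold changes of 0.06 to 0.28 with a median of 0.18. For 4 of 8 all mutant arrays lay above all wild type arrays, against 8.08% of all genes. Cct6a (0.28 ± 0.15) and Cct4 (0.24 ± 0.14) had the smallest p. The median against wild type array 1 alone stood at 0.06.

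Other cytosolic chaperones and co-chaperones (28 measured) had a median of 0.09, with 16 above 0 and 12 below. Bag2, a co-chaperone that holds back HSP70-linked degradation, came closest to the threshold of all 124 genes. It had log2 signals of 8.26, 8.55 and 8.56 in the mutant, against 7.45, 7.51 and 7.37 in the wild type, a log2 fold change of 1.01 ± 0.16 (adjusted p = 0.099). Serpinh1 encodes the collagen chaperone HSP47, a heat shock target, and is counted in this list although HSP47 is an ER protein. Its log2 signals were 7.36, 7.56 and 6.17 in the mutant, against 5.59, 4.35 and 5.35 in the wild type (1.93 ± 0.44, adjusted p = 0.193). The groups were apart for both. Dnajb4 and Dnaja4, J-domain proteins, had the smallest p among the negative values, with log2 fold changes of -0.37 ± 0.15 and -0.49 ± 0.29.

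Other ER folding enzymes (19 measured) had a median of 0.20, with 16 above 0. For 4 of 19 all mutant arrays lay above all wild type arrays (21.1%, against 8.08% of all genes), and for 1 below. Fkbp11, a prolyl isomerase of secretory cells, had log2 signals of 7.38, 7.37 and 8.23 in the mutant, against 6.52, 7.20 and 6.66 in the wild type (0.87 ± 0.29, limma adjusted p = 0.393), and Cnpy2 had the next smallest p (0.28 ± 0.15). The lowest values of the list were those of Fkbp2 (-0.31 ± 0.17), with all mutant arrays below all wild type arrays, and Clgn (-0.24 ± 0.18). The ER translocon and signal peptidase (20 measured), which bring proteins into the ER, did not separate the groups, with a median of 0.03 and 0 of 20 not overlapping. Its smallest p among positive values were those of Sec63 (0.43 ± 0.24) and Srp68 (0.38 ± 0.24), and among negative values those of Sec11c (-0.22 ± 0.16) and Sec61b (-0.23 ± 0.17). Other genes of ER-associated degradation (19 measured) had a median of 0.08 and 1 of 19 apart, Selenos (0.52 ± 0.18, adjusted p = 0.402). Edem3 (0.30 ± 0.24) had the next smallest p among positive values of that list, and Ube2j1 (-0.20 ± 0.16) and Ube2g2 (-0.12 ± 0.15) had the smallest among negative ones.

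Other signalling genes of the unfolded protein response (19 measured) had a median of -0.04, with 9 above 0 and 10 below. The genes with the smallest p below 0 were 2 known targets of the ATF4 branch. Ppp1r15a, which encodes GADD34, the phosphatase subunit that restores translation, had log2 signals of 9.30, 9.55 and 9.52 in the mutant, against 10.02, 10.60 and 9.87 in the wild type (-0.71 ± 0.22, limma adjusted p = 0.345). Trib3, a pseudokinase, had 7.32, 6.73 and 7.09 in the mutant, against 7.48, 8.75 and 7.79 in the wild type (-0.96 ± 0.33, adjusted p = 0.413). All mutant arrays lay below all wild type arrays for both, and the differences from wild type array 1 alone were -0.57 and -0.43. On the other side, Wfs1, an ER membrane protein, had 8.55, 7.94 and 8.54 in the mutant, against 7.55, 7.84 and 5.20 in the wild type (1.48 ± 0.64, adjusted p = 0.496), where wild type array 3 stood far below the rest. Ppp1r15b, the constitutive counterpart of GADD34, had 0.30 ± 0.18 and the groups were apart.

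**Figure D4:**
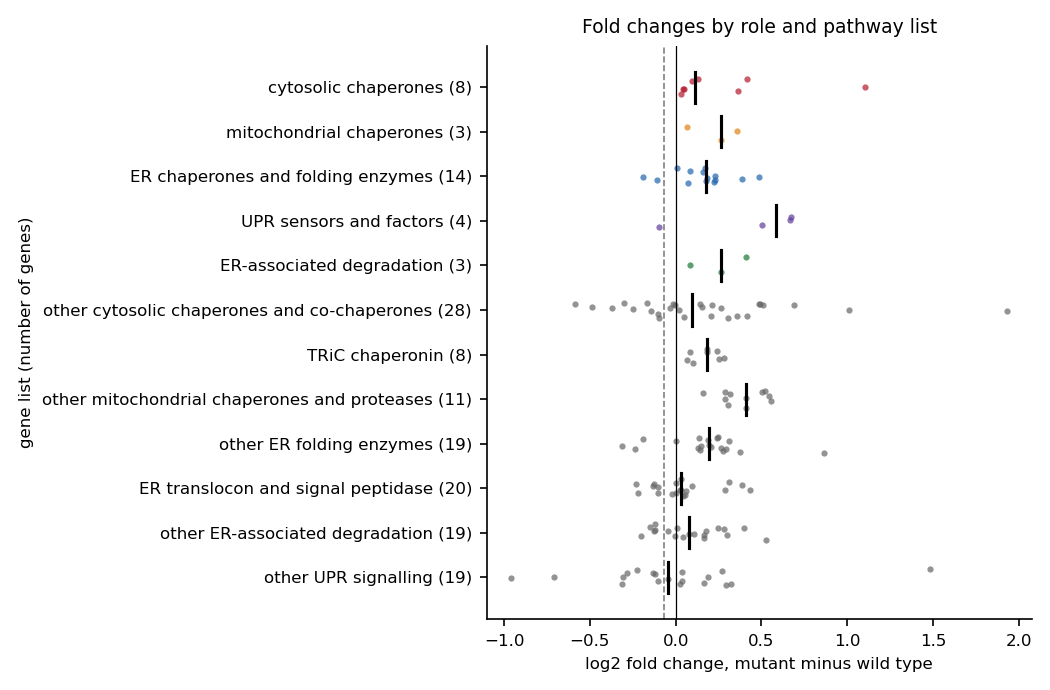
Log2 fold change, mutant minus wild type, of each gene (points) in the 5 roles of the set (coloured) and the 7 lists of other pathway genes (grey), with black bars at list medians, measured genes in brackets and a dashed line at the median of all genes, -0.07. Both mitochondrial rows lie wholly above 0, as do the rows of cytosolic chaperones, of TRiC and of the set's ER-associated degradation genes. Other signalling genes of the unfolded protein response are centred near 0, at -0.04.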

How the data were processed

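Each array has 1 deposited intensity for every probe set, which the authors obtained by RMA according to the submitters' processing notes, in a version not given there. These intensities are linear (7.6 to 33795), so log2 was taken. Of 45101 probe sets, 64 controls, 9160 naming no gene and 932 naming several were left out, and 34945 remained. Names come from the platform annotation, with 34741 Entrez identifiers matched to GRCm38.p6 and 0 symbols updated. For each of 18193 genes the probe set with the highest mean over the 6 arrays was used, with no filter on dim genes. The comparison used lmFit and eBayes of limma 3.58.1 under R 4.3.3 without a covariate, 3 arrays in each group, two-sided, adjusted by Benjamini-Hochberg over all genes and called at an adjusted p under 0.05. Errors are standard errors (SE). The procedure was tested on simulated data. No array repeated another, since any pair shared at most 99 identical values. The number of arrays limits the precision.

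The members and lists were chosen with earlier results of these data known. All measured members are named or counted; of each other pathway list the 2 genes with the smallest p in each direction are named. Promoter sequences are those of RefSeq. Alternatives were the replicate block, Y-linked signal as a covariate, renewed scaling, other probe set rules, filters on dim genes, limma settings and leaving out arrays.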

Additional observations from a re-analysis of the deposited data

How the results depend on the processing

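For the 32 members the count of calls was 0 under all 19 alternatives run, an adjusted p under 0.10 included, and the smallest adjusted p under any of them was 0.142. Over all genes the main count of 20 became 10 with the replicate block, 0 with Y-linked signal as a covariate, 0 without both wild type arrays with Y-linked signal, 9 with each gene's dimmest probe set, 40 with trend and robust fitting, 8 with array weights and 49 at an adjusted p under 0.10; leaving out each array in turn gave 5 (without wild type array 3) to 31 (without wild type array 1). Same-numbered arrays correlated at 0.184, -0.0258 and 0.0631 in their deviations from the group means. The wild type array most like mutant arrays 1 and 3 bore the same number, while that most like mutant array 2 was array 3. With 3 arrays in each group these values cannot decide whether the replicate numbers pair the arrays. The block changed no call among the members. The median log2 fold change of all members was 0.084 with the Y covariate, 0.068 without both of those wild type arrays and 0.15 to 0.22 on leaving out 1 array. That of the cytosolic chaperones reversed to -0.031 with the Y covariate and -0.019 without both of those arrays (0.059 to 0.24 on leaving out 1 array). That of the ER genes was 0.035 with the dimmest probe set and 0.095 without both of those arrays (0.13 to 0.19), and that of the mitochondrial chaperones 0.15 with the mean of probe sets (0.23 to 0.32). Both settings that remove the Y-linked difference in effect set the mutants against wild type array 1, and the median of all genes was then 0.04. Against that array alone the median was 0.025 in the upper 50% of genes by mean signal. Of 32 members, 16 kept their sign under every alternative run and 16 reversed under at least 1 of them, none of them called. With the Y covariate the reversed values were -0.048 for Hspa1b, -0.0079 for Hspa8, -0.15 for Hspa4, -0.015 for Hsp90aa1, -0.088 for Dnaja1, -0.16 for Dnajb1, -0.16 for Dnajc3, -0.24 for Ern1, 0.080 for Eif2ak3 and -0.035 for Edem1. Without both of those wild type arrays they were -0.017 for Hspa1b, -0.015 for Hspa8, -0.16 for Hspa4, -0.020 for Hsp90aa1, -0.11 for Dnaja1, -0.16 for Dnajb1, -0.17 for Dnajc3, -0.36 for Ern1, 0.21 for Eif2ak3 and -0.029 for Edem1. With renewed quantile normalization Sdf2l1 was -0.065; with cyclic loess Dnajc3 was -0.00034, Sdf2l1 -0.082 and Edem1 -0.011; with array weights Sdf2l1 was -0.054 and Eif2ak3 0.0075. With the mean of probe sets Hsp90aa1 was -0.064, Dnajb1 -0.086, Hyou1 -0.25 and Pdia3 -0.0054, and with the dimmest probe set Hspa8 was -0.0062, Hsp90aa1 -0.12, Dnajb1 -0.22, Hspa5 -0.33, Hyou1 -0.11 and Pdia3 -0.19. Leaving out 1 array gave -0.047 to 0.90 for Hspa1b, -0.012 to 0.28 for Hspa4, -0.0034 to 0.083 for Hsp90aa1, -0.029 to 0.15 for Dnajb1, -0.040 to 0.17 for Hspe1, -0.11 to 0.24 for Hyou1, -0.28 to 0.083 for Dnajb9, -0.0025 to 0.19 for Dnajc3, -0.099 to 0.16 for Sdf2l1, -0.54 to 0.50 for Eif2ak3 and -0.050 to 0.19 for Edem1. The cause of these changes was not tested. The values used here carry no background level, so how near dim genes lie to it was not tested; Hspa1a, with the lowest mean log2 signal of the members (6.30), is the 1 member below the median of gene means (7.55).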
